A study of Mus musculus with 21 samples.

Results

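Endothelial cells line the vessels of the brain, and mural cells wrap them, as pericytes on capillaries and smooth muscle cells on arterioles. The values below are those of 38 genes that mark these cells, 27 endothelial and 11 mural, in the ventral hypothalamus (VH) of mice on 4 diet regimens. The 38 were chosen by gene symbol as vascular markers, and all were found among the 21654 genes of the deposited count table. In 37 of them the mean over the 21 libraries was at least 50 reads, the High Filter of the study, which 12768 genes passed when counted by gene identifier (12752 with counts summed by symbol). The exception was the pericyte gene *Higd1b*, with a mean of 29.6 reads, and the member closest above the filter was *Kcnj8*, another pericyte gene, with 53.4.

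The study asked how current diet and body weight each relate to gene expression in the VH, a region named circumventricular hypothalamus in the sample labels. Male C57/BL6 mice from Jackson Labs, acquired at 12 to 14 weeks of age, ate regular chow (RC) or a high-fat diet (HFD) for a long first period. They then stayed on that diet (NoDS, no diet switch) or were moved to the other for a short period (DS, diet switch), and were kept awake with unfamiliar objects for 3 hours before the brain was taken. Poly(A) RNA was sequenced in 21 libraries, each from VH punches of 2 mice of a group pooled equally. RC NoDS (chow throughout, n = 5) was replicates 1, 2, 3, 5 and 6, RC → HFD (chow, then HFD, n = 6) was 7 to 12, HFD → RC (HFD, then chow, n = 5) was 13 to 17, and HFD NoDS (HFD throughout, n = 5) was 19, 20, 21, 23 and 24. Values are listed in that order. The replicates were separate pools, so a value is a mean of 2 animals, and pools that failed quality checks were not sequenced.

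The endothelium of most of the brain forms a barrier: tight junctions seal the gaps between cells, efflux pumps return drugs and metabolites to the blood, and transporters carry in chosen nutrients. Pericytes maintain that barrier through platelet-derived growth factor signalling, and smooth muscle sets the width of arterioles. The median eminence at the base of the hypothalamus is an exception, since its capillaries are fenestrated and let blood-borne hormones reach nerve endings and tanycytes.

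The deposited counts were reads per gene after the authors had sampled all libraries down to an equal depth, and they summed to between 16380781 and 16390598 per library. Neuronal and tanycyte markers were present in every library. The summed reads of 7 neuronal genes ranged from 34046 to 44718, and those of 8 ependymal and tanycyte genes from 7382 to 12231. Sums over lists are scaled by the trimmed mean of M-values (TMM), with factors of 0.982 to 1.02, and reads of single genes are as deposited. Pituitary genes, which mark tissue just below the VH, were uneven, from 50 summed reads in RC → HFD 8 to 2895 in HFD → RC 13. Over the 21 libraries together *Cga*, the shared subunit of the glycoprotein hormones, had the most reads of them, while *Gh* led in HFD → RC 13 (2003 reads) and *Lhb* in RC → HFD 8 (42 reads). The summed reads of 6 choroid plexus genes, 992 to 1385, came mostly from *Clic6*, and *Ttr*, the most abundant transcript of choroid plexus, did not pass 74 reads in any library. A further difference between libraries was the share of thinly covered genes with no read. Of 3116 genes averaging 5 to 50 reads, 1.12, 3.63, 2.34, 7.22 and 1.8% had no read in the libraries of RC NoDS, 3.4, 2.31, 6.58, 19.2, 17.6 and 22.4% in RC → HFD, 9.24, 20.5, 5.68, 15.1 and 31.9% in HFD → RC and 16.2, 32.9, 14.6, 9.88 and 7.7% in HFD NoDS. All HFD NoDS libraries were above all RC NoDS libraries, so this share ran with the contrast of the NoDS groups, while the DS groups overlapped. With this share as a covariate, log2 fold changes in HFD NoDS against RC NoDS turned from 0.049 to −0.146 for *Plvap*, from 0.005 to −0.42 for *Acta2*, from 0.14 to −0.17 for *Eng* and from 0.29 to −0.024 for *Myh11*, and fell from 0.21 to 0.016 for *Pdgfrb*.

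Both classes of vascular genes were readily detected. Per kilobase of exon, the endothelial genes with the highest mean level were *Ly6c1* (462 reads per kb) and *Ly6a* (409), which encode small surface proteins of brain endothelium, the tight junction protein claudin 5 gene *Cldn5* (294), the lipid transporter gene *Mfsd2a* (272) and *Itm2a* (265). The lowest were *Vwf* (9.78), which encodes the clotting protein of larger vessels, *Emcn* (14.9) and *Sox17* (22.5). Exon length was that of all annotated exons of a gene merged, 16.06 kb for *Vwf* and 5.41 kb for *Emcn*. Ranks can shift where the transcripts made are shorter. *Plvap*, which builds the diaphragms of fenestrated vessels and is nearly absent from barrier endothelium, stood at 144 reads per kb, and the barrier transporter gene *Slco1a4* at 48.6. Among the mural genes the level was highest for *Vtn* (492), *Rgs5* (167) and *Acta2* (120), and lowest for *Abcc9* (14.8). Some markers are shared: *Cspg4* is also made by oligodendrocyte precursors, and *Tjp1* by many cell types including ependyma and neurons.

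Reads can be assigned to more than 1 gene where sequence is shared. Of the 741 stretches of 100 bases in the *Ly6c1* transcript, 114 (15.4%) were also in its paralog *Ly6c2*. The share was 7.72% for *Abcb1a* with *Abcb1b*, 4.72% for *Nos3* with the overlapping antisense gene *Atg9b*, 2.46% for *Egfl7* and 1.07% for *Slco1a4* with *Slco1a5*, and 0 for the other 33 members. Only annotated protein-coding transcripts were compared, so copies elsewhere in the genome were not searched. *Eng*, *Pecam1*, *Plvap*, *Egfl7*, *Nos3*, *Abcc9* and *Tagln* overlap a gene on the opposite strand, and *Eng* and *Egfl7* also one on their own strand. How reads in such overlaps were counted is not given.

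The summed endothelial reads were nearly level across diets: 9424 ± 751 in RC NoDS, 9604 ± 500 in RC → HFD, 9841 ± 530 in HFD → RC and 9833 ± 933 in HFD NoDS (mean ± SD). The mural sum was more variable, at 3317 ± 661 in RC NoDS, 3164 ± 253 in RC → HFD, 3196 ± 531 in HFD → RC and 3634 ± 792 in HFD NoDS. Single libraries differed more than groups. The endothelial sum was 8392, 9687, 9326, 9251 and 10464 in RC NoDS and 8443, 10579, 9298, 10330 and 10513 in HFD NoDS, so that a low library (1 and 19) and a high one (6 and 20) occurred in each group and the groups overlapped over almost their whole range. It ran from 8708 (replicate 10) to 9994 (replicate 11) in RC → HFD, and was 10206, 10309, 9654, 9004 and 10031 in HFD → RC. The mural sum was 2586, 3260, 3515, 2905 and 4318 in RC NoDS, 2752 to 3478 in RC → HFD, 3443, 3380, 3084, 2341 and 3734 in HFD → RC and 2794, 4894, 3711, 3180 and 3592 in HFD NoDS. RC NoDS 6 and HFD NoDS 20 were the highest libraries of their groups, and RC NoDS 1, RC → HFD 10, HFD → RC 16 and HFD NoDS 19 were the lowest of their groups for both classes. HFD NoDS 20 also stood apart over all genes, as the highest library for 15.6% of them and the lowest for 17.6%. The next largest shares, both in HFD → RC 17, were 9.47% and 9.92%. In RC NoDS 1, 3 of 27 endothelial and 0 of 10 mural genes were above their median over the 21 libraries, against 21 of 27 and 9 of 10 in RC NoDS 6, while 46.8% and 47.4% of all genes tested were. Fewer vascular cells in a punch and less RNA per cell cannot be told apart in such data.

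**Figure D1:**
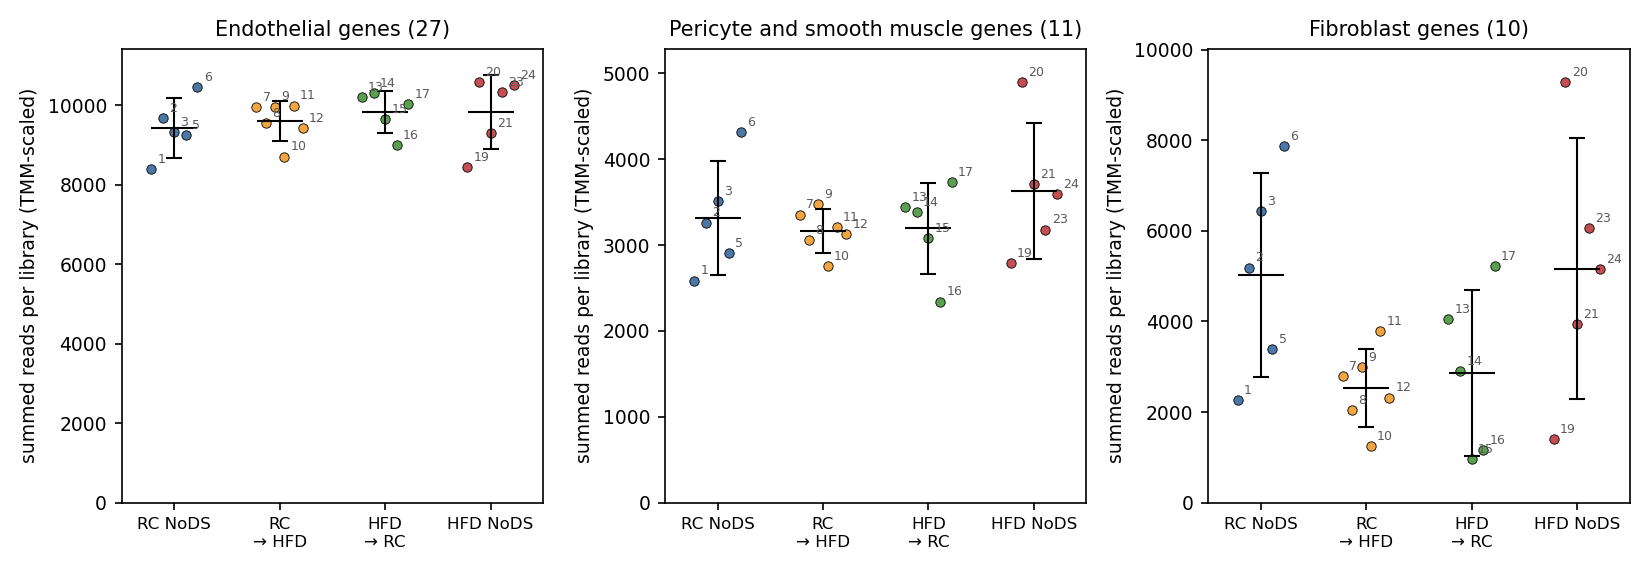
Summed reads per library (TMM-scaled, vertical axis) of the 27 endothelial genes, the 11 pericyte and smooth muscle genes and 10 genes of meningeal and perivascular fibroblasts, by diet group, with points for libraries numbered by replicate and bars for mean and SD. RC NoDS 6 and HFD NoDS 20 are the highest points of the mural panel, at 4318 and 4894.

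The summed reads of fibroblast genes, like the mural sum, were highest in RC NoDS 6 and HFD NoDS 20, though not every gene was. The 10 fibroblast genes, with the growth factor gene *Igf2* the most abundant over the 21 libraries together, summed to 5031 ± 2253 in RC NoDS, 2532 ± 871 in RC → HFD, 2860 ± 1837 in HFD → RC and 5168 ± 2886 in HFD NoDS. The library values were 2272, 5186, 6432, 3398 and 7867 in RC NoDS, 1243 to 3784 in RC → HFD, 4044, 2910, 958, 1164 and 5225 in HFD → RC and 1409, 9275, 3939, 6067 and 5152 in HFD NoDS. The globin gene *Hbb-b1*, a marker of blood, had group means of 2053 ± 315, 892 ± 236, 1671 ± 1136 and 1243 ± 503 reads (RC NoDS, RC → HFD, HFD → RC and HFD NoDS in order), with 3399 in HFD → RC 13 and 327 in HFD → RC 16. None of 6 perivascular macrophage genes passed the High Filter, and their sum was 14 to 197 reads, with *Mrc1* the most abundant over the 21 libraries together. The part of these cells in the values of the vascular genes was not tested.

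The spread among the libraries of a group was wide for many members. The median coefficient of variation was 21.5% for endothelial genes and 33.5% for the 10 mural genes tested, against 14.9% for all 12768. It was lowest for *Tjp1* (9.41%) and *Flt1* (10.6%), and highest for *Anpep* (84.5%), *Kcnj8* (53.4%), *Acta2* (44.4%) and *Tagln* (41.3%). The standard error of a log2 fold change between the NoDS groups was accordingly larger, with a median of 0.20 for endothelial and 0.275 for mural genes, against 0.13 for all genes.

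Long HFD feeding against chow (HFD NoDS v RC NoDS) was the widest contrast in diet and body weight. Of the endothelial genes 17 of 27 were higher and 10 lower, with a median log2 fold change of 0.039, against 6587 of 12768 higher and a median of 0.00645 for all genes. The median log2 level of these genes varied between libraries of a group with an SD of 0.136, and that of the mural genes with an SD of 0.30. Of the 10 mural genes 8 were higher and 2 lower, with a median of 0.12. The edgeR test called 0 of 27 endothelial and 0 of 10 mural genes at an adjusted p under 0.15, where it called 0.0783% of all genes. At an unadjusted p under 0.05 the count of members was also 0, against 7.41% of all genes. It was 2 without RC NoDS 6 or HFD NoDS 24 and 1 without HFD NoDS 19, 21 or 23. DESeq2 and limma-voom called 0 members at an adjusted p under 0.15, with 0 and 1 at an unadjusted p under 0.05. No member had groups that did not overlap, against 0.963% of all genes. The medians rested on single libraries: without HFD NoDS 20 they were −0.036 (endothelial) and −0.0042 (mural), and without RC NoDS 1 the endothelial median was −0.028. With the share of genes at 0 as a covariate they were 0.010 and 0.015.

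The DS groups (HFD → RC v RC → HFD) had opposite diets and switched in opposite directions. Of the endothelial genes 14 were higher and 13 lower in HFD → RC, with a median log2 fold change of 0.036 (0.00012 for all genes, of which 6388 were higher), and of the mural genes 3 were higher and 7 lower, with a median of −0.039. With edgeR 0 of 37 members were called, against 0.00783% of all genes, and 0 had an unadjusted p under 0.05, against 5.35%. Both counts were also 0 with DESeq2 and with limma-voom, and the second was 1 with edgeR without RC → HFD 11. No member separated the groups without overlap, against 0.470% of all genes. Without RC → HFD 10 the endothelial median was −0.0096. The mural median was 0.043 without RC → HFD 9, 0.00014 without RC → HFD 12 and 0.093 without HFD → RC 16. A test over all 4 groups called 0 members with edgeR (0.149% of all genes), and 0 had an unadjusted p under 0.05 (7.97%). The latter count was 2 without RC NoDS 5 or 6, HFD → RC 13 or HFD NoDS 19 or with no filter, and 1 without RC NoDS 1, RC → HFD 7 or HFD NoDS 21 or 24. DESeq2 and limma-voom called 0 at an adjusted p under 0.15, with 0 and 1 at an unadjusted p under 0.05.

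**Figure D2:**
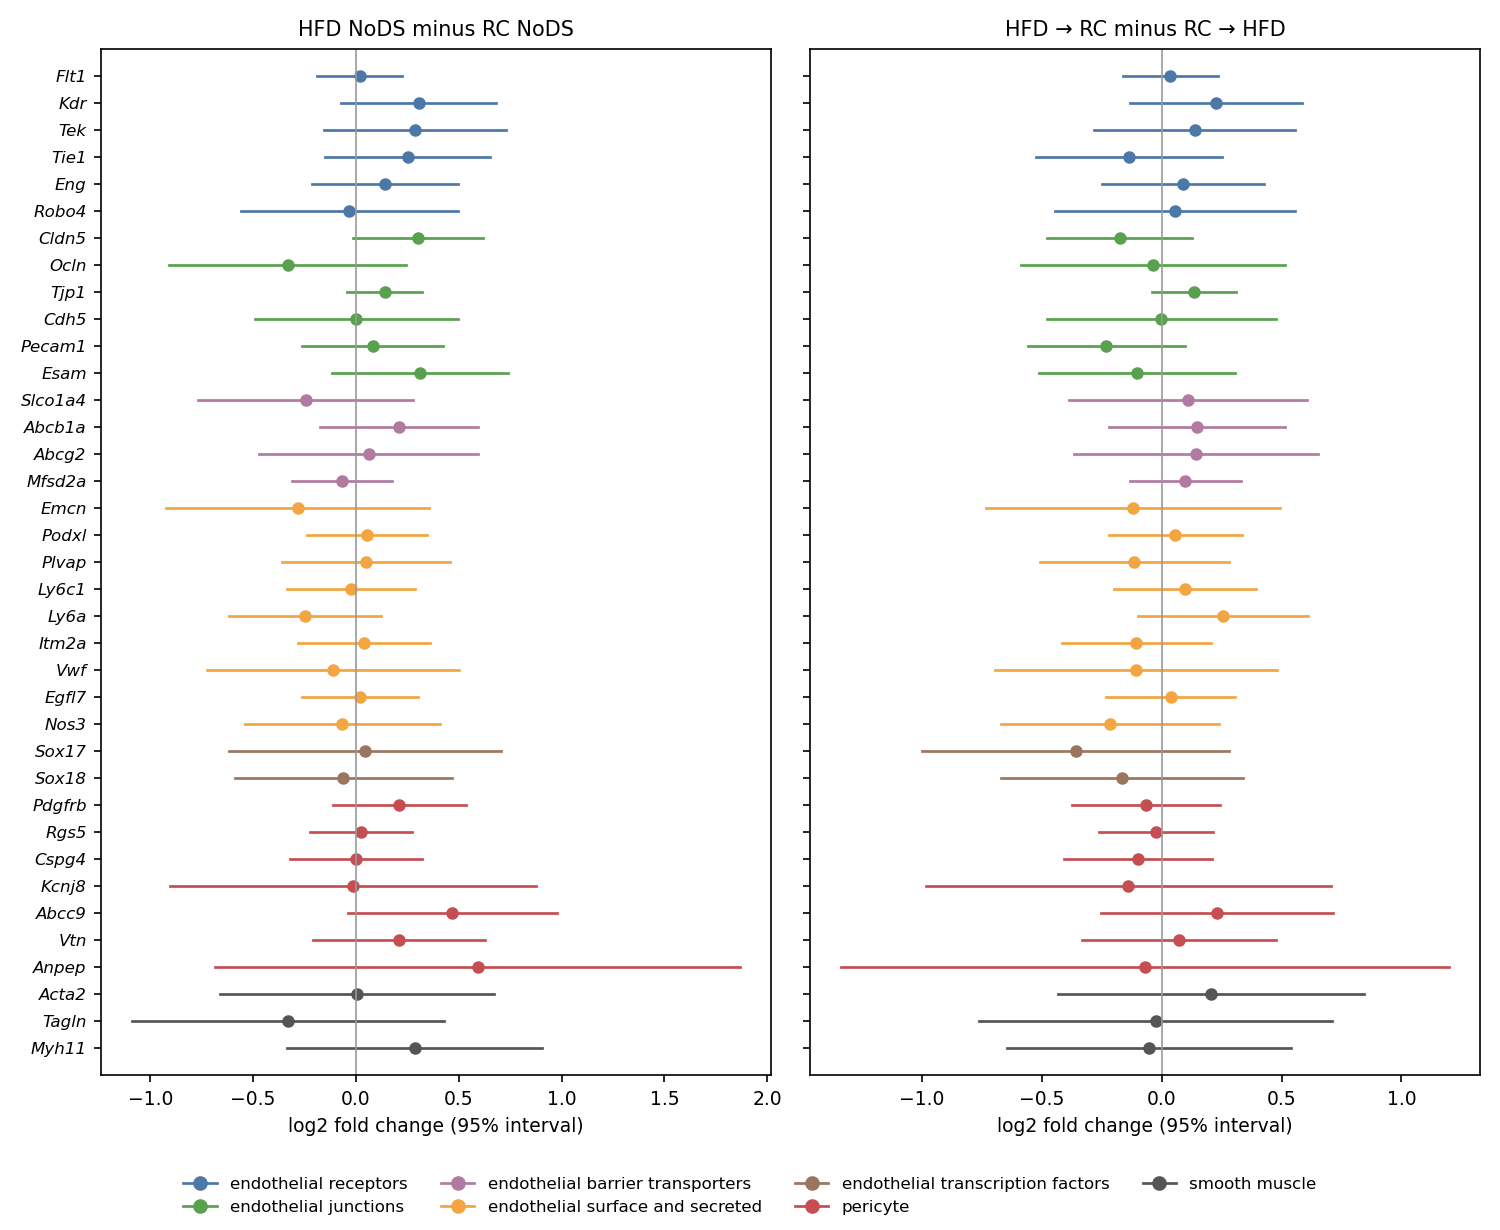
Log2 fold changes (horizontal axis, points) with 95% intervals (lines) of the 37 members tested, for HFD NoDS minus RC NoDS and HFD → RC minus RC → HFD, coloured by role. Every interval includes 0.

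Receptors of the endothelium came first among the roles. *Flt1* (ENSMUSG00000029648, chromosome 5, 148373180 to 148537587, mm9) encodes a receptor of vascular endothelial growth factor (VEGF) that acts largely as a decoy. It had 789, 947, 864, 944 and 1028 reads in RC NoDS, 852 to 1112 with a median of 944 in RC → HFD, 954, 1121, 969, 871 and 1050 in HFD → RC, and 862, 1044, 745, 968 and 951 in HFD NoDS. The highest library was HFD → RC 14 and the lowest HFD NoDS 21, and the 4 groups overlapped throughout. The log2 fold change in HFD NoDS against RC NoDS was 0.018 (95% interval −0.19 to 0.23, adjusted p = 0.974), and its sign turned when RC NoDS 1, RC NoDS 3, HFD NoDS 20 or HFD NoDS 23 was left out, with values of −0.034, −0.0011, −0.043 and −6.15e-06.

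*Kdr* (ENSMUSG00000062960, chromosome 5, 76328852 to 76374483) encodes the main signalling receptor of VEGF. Its reads were 230, 345, 259, 246 and 375 in RC NoDS, 227 to 444 with a median of 273.5 in RC → HFD, 318, 430, 322, 318 and 360 in HFD → RC, and 228, 417, 368, 357 and 405 in HFD NoDS. All HFD → RC libraries and all HFD NoDS libraries but replicate 19 had at least 318 reads, a level that RC NoDS 2 and 6 and the highest RC → HFD library also passed. Between the NoDS groups the log2 fold change was 0.305 (95% interval −0.072 to 0.68, adjusted p = 0.705), and 0.18 with the share of genes at 0 as a covariate. Between the DS groups it was 0.23 (95% interval −0.13 to 0.585, adjusted p = 1), and 0.38 without RC → HFD 11 and 0.14 without HFD → RC 14. Over both pairs, mice that began on HFD had 0.265 (95% interval 0.0051 to 0.525, adjusted p = 0.682) against those that began on chow.

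*Tie1* (ENSMUSG00000033191, chromosome 4, 118143796 to 118162666) encodes a partner of the angiopoietin receptor. The counts were 156, 156, 173, 174 and 223 in RC NoDS, 104 to 225 with a median of 168.5 in RC → HFD, 156, 174, 142, 120 and 162 in HFD → RC, and 180, 201, 214, 223 and 221 in HFD NoDS. All 5 HFD NoDS libraries had at least 180 reads and all 5 HFD → RC libraries at most 174, while RC NoDS and RC → HFD overlapped both. The adjusted p over all 4 groups was 0.731. Relative to HFD NoDS, the log2 fold change of HFD → RC was −0.455 (95% interval −0.86 to −0.052, adjusted p = 0.578), and *Tie1* was the 1 member of 37 whose libraries did not overlap in that pair, against 0.971% of all genes.

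In the other 3 receptors the libraries of the groups overlapped. *Tek*, the angiopoietin receptor, had group means of 137 ± 25.4, 156 ± 27.3, 172 ± 37.2 and 165 ± 41.6 reads (RC NoDS, RC → HFD, HFD → RC and HFD NoDS in order, ± SD). *Eng*, a co-receptor for transforming growth factor β, had 363 ± 62.2, 349 ± 49.5, 372 ± 80.6 and 395 ± 103, and *Robo4*, which stabilizes vessels, 106 ± 36.7, 122 ± 30, 126 ± 18.1 and 102 ± 21. The log2 fold changes between the NoDS groups were 0.29, 0.14 and −0.033, and 0.19, −0.031 and −0.125 without HFD NoDS 20.

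Junction genes included the endothelial members with the smallest p between the NoDS groups and between the DS groups. *Cldn5* (ENSMUSG00000041378, chromosome 16, 18776940 to 18778353) encodes claudin 5, the main claudin of the blood-brain barrier. Its reads were 384, 260, 355, 310 and 499 in RC NoDS, 397 to 535 with a median of 446 in RC → HFD, 449, 353, 468, 312 and 418 in HFD → RC, and 520, 401, 367, 518 and 398 in HFD NoDS. The lowest values of the series were in RC NoDS 2 and 5 and HFD → RC 16, and every library that was on HFD when taken had at least 367 reads, but RC NoDS 1 and 6 and 3 of the HFD → RC libraries did too. HFD NoDS minus RC NoDS was 0.30 (95% interval −0.012 to 0.62, adjusted p = 0.667) on the log2 scale. In RC → HFD against RC NoDS it was 0.35 (95% interval 0.043 to 0.65, adjusted p = 0.701), and in HFD → RC against RC → HFD −0.18 (−0.097 without HFD → RC 16). Averaged over both earlier diets, current HFD differed from current chow by 0.24 (95% interval 0.021 to 0.46, adjusted p = 0.892), with 10 of 11 libraries above the median of the other 10. The adjusted p over all 4 groups was 0.699.

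*Tjp1* (ENSMUSG00000030516, chromosome 7, 72441051 to 72516125) encodes the scaffold protein that ties claudins to the cytoskeleton. It had 1405, 1809, 1596, 1687 and 1552 reads in RC NoDS, 1250 to 1820 with a median of 1616.5 in RC → HFD, 1894, 1613, 1553, 1802 and 1792 in HFD → RC, and 1808, 1699, 1585, 1973 and 1695 in HFD NoDS. HFD NoDS 23 and HFD → RC 13 were highest, RC → HFD 12 and RC NoDS 1 lowest, and the groups overlapped. Its log2 fold change was 0.14 (95% interval −0.043 to 0.32, adjusted p = 0.713) between the NoDS groups and 0.13 (95% interval −0.042 to 0.31, adjusted p = 1) between the DS groups, and 0.092 without RC NoDS 1 and 0.076 without RC → HFD 12. Earlier HFD against earlier chow gave 0.14 (95% interval 0.00995 to 0.26, adjusted p = 0.677).

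*Pecam1* (ENSMUSG00000020717, chromosome 11, 106515531 to 106611942) encodes the adhesion molecule at endothelial cell borders. Reads numbered 290, 310, 291, 288 and 391 in RC NoDS, 286 to 532 with a median of 375.5 in RC → HFD, 373, 323, 295, 271 and 392 in HFD → RC, and 264, 289, 383, 297 and 411 in HFD NoDS. RC → HFD held the highest library of the series (replicate 12) and 3 libraries above all of RC NoDS, yet its lowest was below the lowest RC NoDS library. HFD → RC minus RC → HFD was −0.23 (95% interval −0.56 to 0.096, adjusted p = 1) on the log2 scale. In RC → HFD against RC NoDS it was 0.33 (95% interval 0.0021 to 0.66, adjusted p = 0.765). Without RC → HFD 12 the 2 values were −0.12 and 0.21.

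Of the other junction genes, *Ocln* (occludin) had group means of 194 ± 37.8, 198 ± 37.7, 193 ± 59.8 and 153 ± 66.3 reads, with a single library at 37 in HFD NoDS 20. *Cdh5*, the cadherin of endothelial adherens junctions, had 264 ± 49.3, 214 ± 67.7, 214 ± 57.4 and 261 ± 80.3, and was lowest in RC → HFD 10 at 116 and highest in RC NoDS 6 at 342. *Esam*, an adhesion molecule, had 193 ± 31.2, 224 ± 38.2, 208 ± 73.6 and 237 ± 31.1. The log2 fold changes of the 3 in HFD NoDS against RC NoDS were −0.33, 0.000715 and 0.31. Without HFD NoDS 20 *Ocln* was at −0.085 and *Cdh5* at −0.12, and without HFD NoDS 19 *Cdh5* was at 0.17.

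Transporters of the barrier showed no shared direction between the NoDS groups. *Slco1a4* (ENSMUSG00000030237, chromosome 6, 141753961 to 141804720) encodes an organic anion transporter of brain capillaries. Its libraries had 180, 302, 198, 140 and 130 reads in RC NoDS, 103 to 326 with a median of 201.5 in RC → HFD, 204, 192, 170, 256 and 214 in HFD → RC, and 131, 178, 148, 145 and 189 in HFD NoDS. RC → HFD spanned the whole range of the series, and RC NoDS 2 was the highest of its group, so that all groups overlapped. In HFD NoDS against RC NoDS the log2 fold change was −0.24 (95% interval −0.77 to 0.28, adjusted p = 0.813). It was −0.044 with the share of genes at 0 as a covariate and −0.017 without RC NoDS 2.

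*Abcb1a*, the P-glycoprotein pump, had group means of 374 ± 99.3, 333 ± 77, 369 ± 36.5 and 426 ± 110 reads, and *Abcg2*, a second efflux pump, 160 ± 51.5, 149 ± 40.3, 164 ± 11.8 and 165 ± 66.5. For *Mfsd2a*, which carries lysophospholipids that hold omega-3 fatty acids and limits transcytosis, the means were 620 ± 93.9, 602 ± 99.5, 645 ± 45.1 and 584 ± 22.4. Each pair of groups overlapped in all 3 genes. Their log2 fold changes between the NoDS groups were 0.21, 0.062 and −0.069. *Abcb1a* was at 0.087 and *Abcg2* at 0.205 without HFD NoDS 20, *Abcg2* at −0.17 without HFD NoDS 23 and *Mfsd2a* at 0.0036 without RC NoDS 3.

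Surface and secreted proteins of the endothelium made up 9 members. *Plvap* (ENSMUSG00000034845, chromosome 8, 74021653 to 74035668), the gene of fenestral diaphragms, had 247, 296, 256, 349 and 418 reads in RC NoDS, 209 to 393 with a median of 262 in RC → HFD, 278, 284, 262, 192 and 260 in HFD → RC, and 196, 456, 302, 302 and 344 in HFD NoDS. HFD NoDS 20 and RC NoDS 6 were the highest libraries and HFD → RC 16 and HFD NoDS 19 the lowest, and HFD NoDS spanned the range of every other group except for HFD → RC 16. The log2 fold change between the NoDS groups was 0.049 (95% interval −0.36 to 0.46, adjusted p = 0.964). Its sign turned without RC NoDS 1 (−0.028), RC NoDS 3 (−0.015) or HFD NoDS 20 (−0.12).

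*Ly6a* (ENSMUSG00000075602, chromosome 15, 74825308 to 74828064), also known as Sca-1, lies beside *Ly6c1* in a cluster of related genes. Reads per library were 316, 401, 275, 411 and 420 in RC NoDS, 257 to 349 with a median of 312 in RC → HFD, 348, 297, 365, 327 and 507 in HFD → RC, and 221, 236, 252, 348 and 463 in HFD NoDS. HFD → RC 17 was the highest library, and HFD NoDS 19, 20 and 21 were below all of RC NoDS, but HFD NoDS 24 was above all of it. Log2 fold changes were 0.26 (95% interval −0.098 to 0.61, adjusted p = 1) in HFD → RC against RC → HFD and −0.25 (95% interval −0.62 to 0.12, adjusted p = 0.739) in HFD NoDS against RC NoDS. The first was 0.12 without HFD → RC 17. The second was −0.16 without HFD NoDS 19 and −0.44 without HFD NoDS 24.

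*Itm2a* (ENSMUSG00000031239, chromosome X, 104592438 to 104598715) encodes a membrane protein of unsettled function that is enriched in brain vessels. Its counts were 653, 582, 510, 365 and 421 in RC NoDS, 375 to 531 with a median of 412.5 in RC → HFD, 394, 397, 437, 397 and 389 in HFD → RC, and 389, 652, 364, 523 and 635 in HFD NoDS. The 5 HFD → RC libraries lay close together, within the lower part of both NoDS groups, and RC NoDS 1, HFD NoDS 20 and HFD NoDS 24 were highest. The adjusted p over all 4 groups was 0.699. In HFD → RC against HFD NoDS the log2 fold change was −0.34 (95% interval −0.665 to −0.017, adjusted p = 0.614), and −0.22 without both HFD → RC 17 and HFD NoDS 20. The interaction, the difference made by current HFD after earlier HFD minus that after earlier chow, was 0.54 (95% interval 0.0885 to 0.98, adjusted p = 0.459).

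The other 6 were *Emcn*, an adhesion-limiting sialomucin (32 to 116 reads over the 21 libraries), *Podxl*, a sialomucin of the vessel lumen (432 to 818), *Ly6c1* (245 to 515), *Vwf* (68 to 238), *Egfl7*, a matrix protein that guides sprouts (339 to 618), and *Nos3*, the endothelial nitric oxide synthase (89 to 236). *Emcn*, *Podxl* and *Egfl7* were lowest in HFD NoDS 19. Mean reads of *Nos3* were 147 ± 42.5, 173 ± 41.3, 149 ± 24.1 and 138 ± 32.8. Log2 fold changes of the 9 genes in HFD NoDS against RC NoDS ran from −0.28 for *Emcn*, which was at −0.096 without HFD NoDS 19, to 0.053 for *Podxl*, which was at −0.067 without HFD NoDS 24.

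*Sox17* and *Sox18*, transcription factors of arterial and endothelial identity, averaged 71 and 116 reads over the 21 libraries. Group means were 76.6 ± 17, 72.3 ± 21.5, 56.4 ± 23.2 and 78.2 ± 24.5 reads for *Sox17* and 116 ± 17.3, 125 ± 24.5, 112 ± 44.3 and 110 ± 23.2 for *Sox18*. *Sox17* was lowest in HFD → RC 16 at 22 and highest in RC → HFD 11 at 112. In HFD → RC against RC → HFD the log2 fold changes were −0.36 (95% interval −0.999 to 0.28, adjusted p = 1) and −0.165. *Sox17* was at −0.15 without HFD → RC 16 and −0.19 without RC → HFD 11, and *Sox18* at 0.0003 without HFD → RC 14.

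Pericytes are marked by *Pdgfrb* (ENSMUSG00000024620, chromosome 18, 61204804 to 61244715), the receptor through which endothelial cells recruit them. It had 317, 328, 358, 488 and 442 reads in RC NoDS, 371 to 468 with a median of 398.5 in RC → HFD, 380, 398, 340, 284 and 534 in HFD → RC, and 461, 475, 523, 321 and 432 in HFD NoDS. HFD → RC held both the highest library (17) and the lowest (16), and 4 of the 5 HFD NoDS libraries exceeded 3 of the 5 RC NoDS libraries. The log2 fold change between the NoDS groups was 0.21 (95% interval −0.11 to 0.535, adjusted p = 0.743), and 0.016 with the share of genes at 0 as a covariate.

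*Rgs5* (ENSMUSG00000026678, chromosome 1, 171585632 to 171625944) encodes a brake on G-protein signalling in pericytes. Its reads were 728, 961, 696, 556 and 764 in RC NoDS, 709 to 858 with a median of 784 in RC → HFD, 714, 794, 714, 741 and 874 in HFD → RC, and 626, 622, 881, 679 and 913 in HFD NoDS. RC NoDS held the lowest and the highest library of the series, replicates 5 and 2, and the other groups fell between them. HFD NoDS differed from RC NoDS by 0.024 (95% interval −0.225 to 0.27, adjusted p = 0.971) on the log2 scale, and its sign turned without RC NoDS 5 (−0.060), HFD NoDS 21 (−0.042) or HFD NoDS 24 (−0.055).

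*Cspg4* (ENSMUSG00000032911, chromosome 9, 56712911 to 56747677), the NG2 proteoglycan, had 274, 338, 381, 455 and 393 reads in RC NoDS, 373 to 497 with a median of 391.5 in RC → HFD, 392, 378, 487, 235 and 415 in HFD → RC, and 368, 359, 417, 328 and 348 in HFD NoDS. RC → HFD 9 and HFD → RC 15 were highest and HFD → RC 16 lowest, so that the DS groups overlapped. The log2 fold change in HFD → RC against RC → HFD was −0.099 (95% interval −0.41 to 0.21, adjusted p = 1), and it was 0.034 without HFD → RC 16, −0.037 without RC → HFD 9 and −0.21 without HFD → RC 15. The summed reads of 6 genes of oligodendrocyte precursors, which also make *Cspg4*, were 4980 ± 517 in RC NoDS, 5253 ± 143 in RC → HFD, 5804 ± 248 in HFD → RC and 5429 ± 81.4 in HFD NoDS.

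*Abcc9* (ENSMUSG00000030249, chromosome 6, 142536382 to 142650794) encodes the sulfonylurea receptor subunit of the potassium channel of pericytes, and *Kcnj8*, close by on chromosome 6, its pore. Reads of *Abcc9* were 93, 81, 113, 107 and 94 in RC NoDS, 71 to 130 with a median of 102 in RC → HFD, 132, 70, 113, 119 and 154 in HFD → RC, and 134, 199, 121, 99 and 113 in HFD NoDS. HFD NoDS 20 was the highest library, and 3 HFD NoDS libraries were above all of RC NoDS, while replicates 23 and 24 lay within or at its upper end. HFD NoDS minus RC NoDS was 0.47 (95% interval −0.038 to 0.98, adjusted p = 0.678) on the log2 scale, and 0.27 without HFD NoDS 20. Between the DS groups it was 0.23 (95% interval −0.255 to 0.715, adjusted p = 1), and 0.15 without RC → HFD 11, 0.12 without HFD → RC 17 and 0.37 without HFD → RC 14. *Kcnj8* had means of 48.2 ± 20.3, 61.2 ± 45.2, 55.6 ± 11.4 and 47.2 ± 16.8 reads and ranged from 14 in RC → HFD 10 to 139 in RC → HFD 12, with a log2 fold change of −0.014 between the NoDS groups, which ran from −0.195 without HFD NoDS 23 to 0.25 without RC NoDS 6.

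*Vtn* (ENSMUSG00000017344, chromosome 11, 78312593 to 78315826) encodes vitronectin, a secreted matrix protein made in the brain mainly by pericytes. The libraries had 745, 975, 1199, 799 and 1607 reads in RC NoDS, 625 to 1022 with a median of 900 in RC → HFD, 1179, 895, 795, 554 and 1048 in HFD → RC, and 843, 1859, 1036, 1143 and 1193 in HFD NoDS. HFD NoDS 20 and RC NoDS 6 stood above the rest, all RC → HFD libraries were at or below 1022, and 4 HFD NoDS libraries were above that. The adjusted p over all 4 groups was 0.654. On the log2 scale the difference was 0.51 (95% interval 0.11 to 0.91, adjusted p = 0.556) for HFD NoDS minus RC → HFD and −0.44 (95% interval −0.86 to −0.016, adjusted p = 0.617) for HFD → RC minus HFD NoDS, and the interaction was 0.74 (95% interval 0.16 to 1.32, adjusted p = 0.419). Without HFD NoDS 20 these were 0.30, −0.22 and 0.53.

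*Anpep* (ENSMUSG00000039062, chromosome 7, 86966689 to 86993096) encodes aminopeptidase N, also called CD13, on the pericyte surface. Its reads were 39, 92, 85, 95 and 112 in RC NoDS, 2 to 75 with a median of 53.5 in RC → HFD, 99, 70, 36, 18 and 1 in HFD → RC, and 33, 322, 91, 115 and 67 in HFD NoDS. The gene ranged from 1 read in HFD → RC 17 and 2 in RC → HFD 10 to 322 in HFD NoDS 20. Over all 4 groups the adjusted p was 0.654. Log2 fold changes were 1.41 (95% interval 0.17 to 2.65, adjusted p = 0.614) in HFD NoDS against RC → HFD and −1.48 (95% interval −2.80 to −0.17, adjusted p = 0.58) in HFD → RC against HFD NoDS, and the interaction was 2.30 (95% interval 0.49 to 4.11, adjusted p = 0.415). Without HFD NoDS 20 the 3 values were 0.68, −0.75 and 1.57. The highest libraries for *Vtn*, RC NoDS 6 and HFD NoDS 20, were those with the highest fibroblast sums, 7867 and 9275 reads. *Anpep* was also highest in HFD NoDS 20, but HFD NoDS 23 (115 reads, fibroblast sum 6067) was above RC NoDS 6 (112 reads). HFD → RC 17, with 1 *Anpep* read, had the highest fibroblast sum of its group, 5225. All 9 fibroblast genes tested were higher in HFD NoDS than in RC → HFD (median log2 fold change 1.05), lower in HFD → RC than in HFD NoDS (−0.855) and above 0 in the interaction (1.85), and edgeR called 0 of them. At an unadjusted p under 0.05 there were 6, 4 and 8 of the 9 (7.49%, 7.93% and 8.84% of all genes), and 4, 1 and 8 without HFD NoDS 20. The second count was also 2 without HFD → RC 15 or 16 and 7 without HFD → RC 17 or HFD NoDS 19. Without HFD NoDS 19 edgeR called 1, 0 and 4 of them, where it called 31, 2 and 103 of all 12768 genes. In the interaction it called 1 of them without HFD NoDS 20, where it called 124 of all genes. DESeq2 with all libraries also called 1 of them in the interaction, where it called 116 of all genes. The part of fibroblasts in the values of *Vtn* and *Anpep* was not tested.

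*Higd1b*, below the High Filter, had group means of 24.2 ± 5.07, 25.8 ± 13.7, 41.4 ± 21 and 27.6 ± 12.3 reads. With the Low Filter of the study, a mean of at least 5 reads, which 15884 gene identifiers passed, its log2 fold change was 0.20 (SE 0.506, adjusted p = 0.96, edgeR) between the NoDS groups and 0.67 (SE 0.479, adjusted p = 0.999) between the DS groups.

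**Figure D3:**
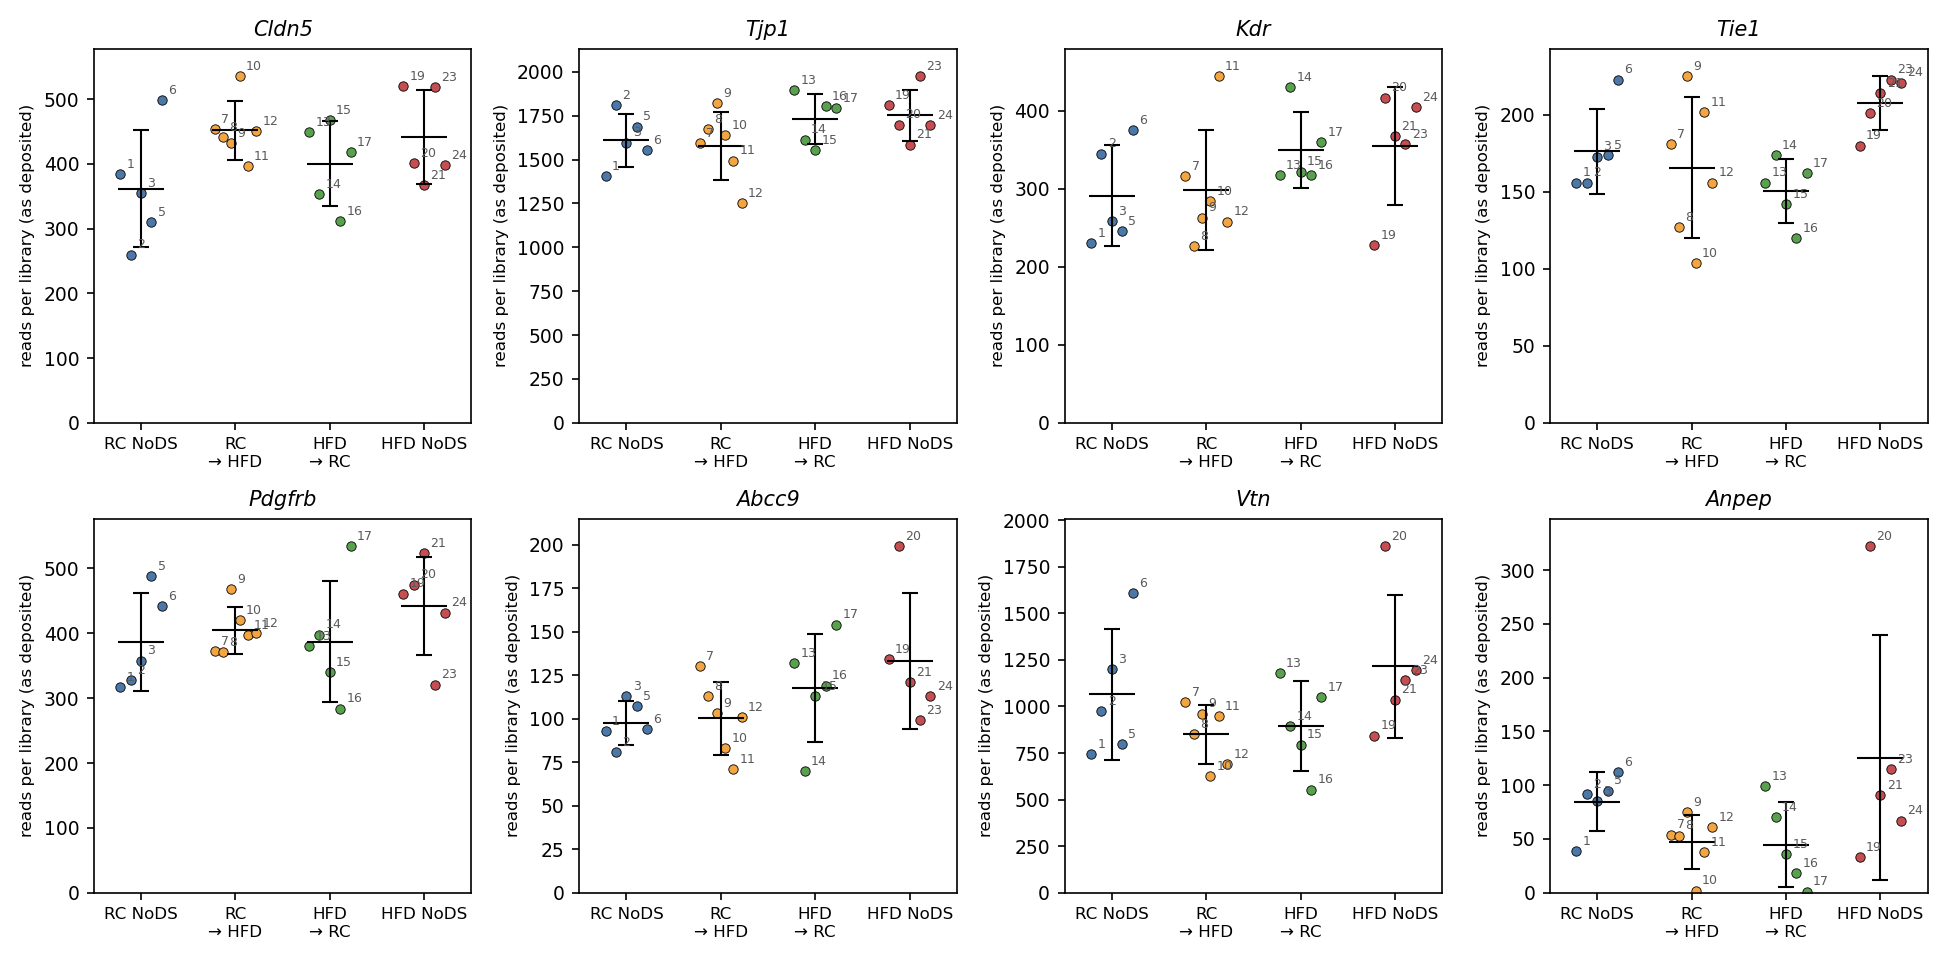
Reads per library as deposited (vertical axis) of 4 endothelial genes (upper panels) and 4 pericyte genes (lower panels), by diet group, with points for libraries numbered by replicate and bars for mean and SD. *Tie1* is at 180 reads or more in HFD NoDS and 174 or fewer in HFD → RC, and *Anpep* reaches 322 reads in HFD NoDS 20.

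Smooth muscle was represented by 3 contractile genes. *Acta2* (ENSMUSG00000035783, chromosome 19, 34315580 to 34329826), smooth muscle α-actin, had 151, 241, 254, 84 and 385 reads in RC NoDS, 163 to 265 with a median of 174.5 in RC → HFD, 210, 390, 177, 141 and 199 in HFD → RC, and 119, 411, 228, 147 and 196 in HFD NoDS. A high library stood out in RC NoDS (6), HFD → RC (14) and HFD NoDS (20), and RC NoDS 5 was lowest. Its log2 fold change between the NoDS groups was 0.005 (95% interval −0.66 to 0.67, adjusted p = 0.997), and was negative without RC NoDS 1 (−0.11), RC NoDS 5 (−0.20), HFD NoDS 20 (−0.36) or HFD NoDS 21 (−0.0045).

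*Tagln* (transgelin) had group means of 174 ± 51.2, 109 ± 51.2, 107 ± 38.7 and 137 ± 70.6 reads and *Myh11* (smooth muscle myosin) 143 ± 58.4, 166 ± 25.3, 160 ± 68.4 and 172 ± 79.6. *Tagln* was lowest in RC → HFD 10 at 34 and highest in RC NoDS 6 at 239, and *Myh11* was lowest in HFD NoDS 19 at 77 and highest in HFD NoDS 20 at 291. Their log2 fold changes between the NoDS groups were −0.33 (95% interval −1.09 to 0.43, adjusted p = 0.825) and 0.29 (95% interval −0.33 to 0.91, adjusted p = 0.815). *Tagln* was at −0.11 without HFD NoDS 19, −0.19 without RC NoDS 6 and −0.61 without HFD NoDS 21. *Myh11* was at 0.00082 without HFD NoDS 20, 0.15 without RC NoDS 5, 0.17 without RC NoDS 1, 0.47 without HFD NoDS 19 and 0.485 without RC NoDS 6. The 3 genes summed to 534 ± 212 in RC NoDS, 471 ± 76.3 in RC → HFD, 494 ± 147 in HFD → RC and 531 ± 240 in HFD NoDS, from 243 reads in HFD NoDS 19 to 885 in HFD NoDS 20.

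The other pairs of groups share libraries with the comparisons above and with each other. In RC → HFD against RC NoDS, a short period of HFD, edgeR called 0 of 37 members (0.0392% of all genes), and 2, *Cldn5* and *Pecam1*, had an unadjusted p under 0.05 (6.51%). That count was 0 without RC NoDS 2 or 5, and 1 without RC NoDS 1 or 3, RC → HFD 10, 11 or 12, HFD → RC 13, 14 or 15 or HFD NoDS 23. It was 3 without RC → HFD 9. In this pair all 9 fibroblast genes tested were lower (median log2 fold change −0.999), 5 of them at an unadjusted p under 0.05. Of 8 ependymal and tanycyte genes, 4 were lower and 0 higher at such a p. The blood gene *Hbb-b1* had 589 to 1106 reads in RC → HFD and 1739 to 2490 in RC NoDS, without overlap. The part of these cells and of blood in the values of *Cldn5* and *Pecam1* was not tested. In HFD → RC against RC NoDS edgeR called 0 (0.282%), with 0 at an unadjusted p under 0.05 (8.10%), or 3 without RC NoDS 6 and 1 without RC NoDS 5 or HFD → RC 14. In HFD NoDS against RC → HFD it called 0 (0.0157%), and the pericyte genes *Vtn* and *Anpep* had an unadjusted p under 0.05 (7.49%). This count of 2 rested on single libraries: it was 0 without HFD NoDS 20, 1 without RC → HFD 10, 4 without HFD NoDS 21 and 5 without RC → HFD 9 or HFD NoDS 19. In HFD → RC against HFD NoDS it called 0 (0.0705%), and 4 members, *Tie1*, *Itm2a*, *Vtn* and *Anpep*, had an unadjusted p under 0.05 (7.93%), all lower in HFD → RC. Here the count was 0 without HFD → RC 16, 1 without HFD NoDS 20 and 2 without HFD → RC 14 or 15 or HFD NoDS 23. No member had groups without overlap in the first 3 of these pairs, against 1.15%, 1.35% and 0.728% of all genes.

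Combining pairs, earlier diet called 0 of 37 members with edgeR (0.0705% of all genes), and *Kdr* and *Tjp1* had an unadjusted p under 0.05 (7.27%). That count was 0 without RC NoDS 1, RC → HFD 12 or HFD → RC 17, without both HFD → RC 17 and HFD NoDS 20, or with library size alone. It was 1 with the share of genes at 0 as a covariate and without RC NoDS 5 or 6, RC → HFD 8, 9, 10 or 11, HFD → RC 13 or 16 or HFD NoDS 19, 20 or 23. Current diet called 0 (0.0470%), and 1, *Cldn5*, had an unadjusted p under 0.05 (5.22%). The count was 0 without RC NoDS 2 or 5, RC → HFD 10 or HFD NoDS 19, and 2 without RC NoDS 1 or 3, RC → HFD 7 or 12 or HFD NoDS 24. The interaction of earlier with current diet called 0 (0.0313%), and 3 members, *Itm2a*, *Vtn* and *Anpep*, had an unadjusted p under 0.05 (8.84%). The 3 became 1 without HFD NoDS 20, 5 without RC → HFD 9 or HFD → RC 14 and 6 without RC → HFD 11 or HFD NoDS 19. Other cell types also had genes at an unadjusted p under 0.05 in the interaction. Of 8 ependymal and tanycyte genes 4 were above 0 and 0 below at such a p (list median 0.468). Of 7 neuronal genes 4 were below 0 and 0 above (list median −0.303). DESeq2 and limma-voom called 0 members at an adjusted p under 0.15 in the 7 comparisons of these 2 paragraphs, and had 0 to 3 and 1 to 4 members at an unadjusted p under 0.05. For most members the intervals leave room for differences of a size that these tests could not call, so a missing call does not show equal expression.

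Among genes of pathways that act on these cells, edgeR, DESeq2 and limma-voom called 0 between the NoDS groups and 0 between the DS groups. Of 16 tested genes of vascular growth factor signalling, 1 had an unadjusted p under 0.05 between the NoDS groups and 3 between the DS groups (7.41% and 5.35% of all genes). The 1 was 0 without RC NoDS 6, 2 without HFD NoDS 19 and 3 without HFD NoDS 23, and the 3 were 1 without RC → HFD 11. The endothelial receptor gene *Acvrl1* had the smallest p between the NoDS groups, at −0.48 (95% interval −0.86 to −0.094, adjusted p = 0.657). Between the DS groups it was *S1pr1*, a receptor for sphingosine 1-phosphate that steadies the barrier, at 0.21 (95% interval 0.073 to 0.35, adjusted p = 0.789). All 5 HFD → RC libraries (2156 to 2317 reads) were above all RC → HFD libraries (1722 to 2096), where 0.470% of all genes had DS groups that did not overlap. Which cells of the punches made the *S1pr1* reads was not tested. *Apln*, the apelin gene, stood at 0.40 (95% interval 0.073 to 0.72, adjusted p = 0.899). Of 14 genes of Wnt barrier signalling, 0 had an unadjusted p under 0.05 in either comparison, and 1 had between the NoDS groups without RC NoDS 6. Among 13 Notch genes, 2 did in each comparison, *Hey1* (0.33) and *Efnb2* (−0.33) between the NoDS groups, and *Notch3* (−0.365), the Notch receptor of mural cells, and *Notch4* (−0.51), that of endothelium, between the DS groups. The first 2 were 1 without RC NoDS 3 or 5 or HFD NoDS 19, 20 or 24. The others were 0 without RC → HFD 10 or HFD → RC 16, and 1 without RC NoDS 3 or 5, RC → HFD 7, 11 or 12, HFD → RC 13, 14 or 17 or HFD NoDS 24.

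Of 14 other barrier transporter genes, the transferrin receptor gene *Tfrc*, which brings iron into the brain, had the smallest p, with a log2 fold change of −0.59 (95% interval −0.94 to −0.245, adjusted p = 0.607) in HFD NoDS against RC NoDS, and −0.32 with the share of genes at 0 as a covariate. Among 8 other tight junction genes it was *Jam2*, at 0.25 (95% interval 0.0045 to 0.50, adjusted p = 0.927) in HFD → RC against RC → HFD. Of 9 genes of inflamed endothelium only 3 passed the High Filter. Among 8 further mural genes *Mcam*, an adhesion molecule of pericytes, smooth muscle and endothelium, had 338, 480, 335, 444 and 534 reads in RC NoDS and 443, 1041, 607, 669 and 554 in HFD NoDS, with 4 HFD NoDS libraries above all of RC NoDS. Its log2 fold change was 0.66 (95% interval 0.29 to 1.03, adjusted p = 0.607), and 0.42 without HFD NoDS 20, the library with the highest fibroblast sum, and 0.37 with the share of genes at 0 as a covariate. Between the NoDS groups these 4 lists had 1 (transporters), 0 (junctions), 0 (inflamed endothelium) and 1 (mural) genes at an unadjusted p under 0.05 (7.41% of all genes), and between the DS groups 0, 1, 0 and 0 (5.35%). With the covariate both counts of 1 between the NoDS groups were 0. That of transporters was 2 without RC NoDS 5 or HFD NoDS 23, and that of junctions 1 without RC NoDS 6. Between the DS groups the 1 was 0 with library size alone, with the Low Filter, and without RC NoDS 3, RC → HFD 10 or 12, HFD → RC 13, 14, 16 or 17 or HFD NoDS 19.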

How the data were processed

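Poly(A) RNA of VH punches was sequenced in 21 libraries of 4 diet groups. The authors merged runs with Picard 2.7.1, aligned reads to mm9 with STAR 2.5.1b, re-sampled every library with PORT and deposited whole-number counts of reads per gene, which were used as deposited. Genes averaging at least 50 reads were normalized by TMM and tested with edgeR 4.0.16 (quasi-likelihood F-test, R 4.3.3), with a mean per group and p-values adjusted by Benjamini-Hochberg over 12768 genes (threshold 0.15). Intervals are 95% and cover differences between pools. Positions and exon lengths are from GENCODE vM1 (mm9), matched for all 38 members. Values of each library (for RC → HFD, the range and median) are given for the 3 endothelial and 2 mural members with the smallest p in each of the first 3 comparisons, and for *Cldn5*, *Flt1*, *Slco1a4*, *Plvap*, *Pdgfrb*, *Rgs5* and *Acta2*. From each pathway list, at most 2 genes with the smallest p per comparison are named. Alternatives were DESeq2 1.42.0, limma-voom 3.58.1, other scalings and filters, a covariate, and each library left out. Leaving out both libraries with over 30% of thinly covered genes at 0 was chosen after seeing the data. Members and lists were chosen with earlier results of these data known. Figures were drawn with matplotlib 3.10.9 (Python 3.11.15).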

Additional observations from a re-analysis of the deposited data

Results flagged for a closer look

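In 188 groups of 5 or 6 libraries (152 of single genes, the rest of summed lists), 11 held a library whose gap to its nearest neighbour took up most of the range of the group. Chance flags about 1 in 20 groups. In RC NoDS, replicate 6 was high for *Tie1* (223 reads, others 156 to 174) and *Pecam1* (391, others 288 to 310), and replicate 5 low for *Ocln* (129, others 203 to 227). In HFD NoDS, replicate 20 was low for *Ocln* (37, others 168 to 205) and high for *Anpep* (322, others 33 to 115). In HFD → RC, replicate 16 was low for *Mfsd2a* (566, others 654 to 677) and *Plvap* (192, others 260 to 284), replicate 15 high for *Itm2a* (437, others 389 to 397), and replicate 14 high for *Acta2* (390, others 141 to 210). In RC → HFD, replicate 9 was high for *Cspg4* (497, others 373 to 419), and replicate 10 low for the summed reads of *Sox17* and *Sox18* (131, others 195 to 233).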

How the results depend on the processing

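Of 32 other settings, 21 left out 1 library, 1 used DESeq2 and 1 limma-voom, and the rest were fits with edgeR. They called 0 members in the 10 comparisons, of which only the 6 pairs were run for the fit to the libraries of the groups compared, while the number of all genes called ranged from 0 to 205. The 205 arose in RC NoDS against HFD → RC without HFD → RC 16, where 36 were called with all libraries. Of 480 values for 15 log2 fold changes of single genes, 25 had the other sign, and none of these was called. With library size alone *Flt1* was −0.00042 and *Acta2* −0.018, and *Acta2* was −0.00133 with the Low Filter and −0.0058 with no filter. With the share of genes at 0 as a covariate *Flt1* was −0.046, *Plvap* −0.146 and *Acta2* −0.42. Without both libraries with over 30% of such genes at 0, chosen after seeing the data, *Flt1* was −0.043, *Plvap* −0.124 and *Acta2* −0.36. With 1 library left out, *Flt1* ranged from −0.043 to 0.085, *Plvap* from −0.12 to 0.18, *Acta2* from −0.36 to 0.30 and *Rgs5* from −0.060 to 0.13 between the NoDS groups, and *Cspg4* from −0.21 to 0.034 between the DS groups. The cause was not tested. Over all settings the endothelial median ranged from −0.036 to 0.13 between the NoDS groups and the mural median from −0.0047 to 0.28; between the DS groups they ranged from −0.0096 to 0.042 and from −0.074 to 0.093, and limma-voom gave a mural median of 0.0083. At an unadjusted p under 0.05 the 2 members of RC → HFD against RC NoDS were 1 with DESeq2 size factors, library size alone, no filter or the covariate. They were 3 with only the libraries compared. In HFD → RC against RC NoDS 0 became 1 with library size alone or without both libraries, and 2 with only the libraries compared. In HFD NoDS against RC → HFD 2 became 1 with DESeq2, robust dispersion or the covariate and 0 without both libraries. In HFD → RC against HFD NoDS 4 became 2 with DESeq2, robust dispersion or without both libraries. For current diet 1 became 2 with DESeq2, limma-voom or no filter, and for the interaction 3 became 1 without both libraries. A gene such as *Kcnj8*, with a 95% interval of −0.91 to 0.88 between the NoDS groups, could differ widely without a call.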

Other observations

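Of the 6 astrocyte genes, which encode proteins of the cells whose endfeet cover brain vessels, 1 was called by edgeR over all 4 groups (0.149% of all genes) and 1 for earlier diet (0.0705%). That gene was *Gfap* in both, and its values do not stand for the list. Summed reads of the 6 genes, with *Slc1a2* the most abundant, were 36913 ± 2017 in RC NoDS and 37612 ± 2041 in RC → HFD. They were 39193 ± 651 in HFD → RC and 37788 ± 2886 in HFD NoDS. *Gfap*, the intermediate filament gene of astrocytes, had 3341, 2891, 3903, 3645 and 4393 reads in RC NoDS, 2282 to 3600 with a median of 3285 in RC → HFD, 5357, 8518, 3402, 2987 and 4057 in HFD → RC, and 6183, 8291, 4570, 8797 and 3807 in HFD NoDS. The higher libraries were those of mice that had begun on HFD, but HFD → RC 15, 16 and 17 and HFD NoDS 24 were within the range of RC NoDS. The adjusted p of *Gfap* over all 4 groups was 0.125 (edgeR), and earlier HFD against earlier chow had a log2 fold change of 0.73 (95% interval 0.42 to 1.04, adjusted p = 0.0891). With DESeq2 these adjusted p were 0.0898 and 0.117, but 0.265 and 0.359 with limma-voom, 0.471 and 0.504 with robust dispersion, 0.403 and 1 with the share of genes at 0 as a covariate and 0.174 and 0.193 without both HFD → RC 17 and HFD NoDS 20. The log2 fold change for earlier diet was 0.73 with DESeq2, 0.66 with limma-voom, 0.73 with robust dispersion, 0.60 with the covariate and 0.70 without both libraries, and 0.58 to 0.80 with 1 library left out. The call over all 4 groups ended without RC NoDS 1, 2 or 5, any RC → HFD library, HFD → RC 13 or 17 or HFD NoDS 19, 20 or 23 (adjusted p of 0.155 to 0.295). The call for earlier diet ended without RC NoDS 1, 2 or 5, RC → HFD 8, 9, 10 or 11, HFD → RC 13 or 14 or HFD NoDS 20 or 23 (0.152 to 0.25). Of the blood genes, *Alas2* had a log2 fold change of 1.66 (adjusted p = 0.647) and *Hbb-b1* of 0.91 (adjusted p = 0.869, and a fold change of 0.47 without HFD → RC 13 and 0.60 with limma-voom) in HFD → RC against RC → HFD, and neither was called by edgeR in that pair. Both genes separated RC → HFD from RC NoDS without overlap, against 1.15% of all genes. *Alas2* had 10 to 53 reads in RC → HFD and 57 to 122 in RC NoDS, and *Hbb-b1* 589 to 1106 and 1739 to 2490.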
